A study of Mus musculus with 8 samples.

Results

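The simple epithelial keratins are the intermediate filament proteins of single-layered epithelia such as kidney tubules, and 5 of their genes were examined here by gene symbol: Krt7, Krt8, Krt18, Krt19 and Krt20, of 20245 entries in each deposited table. Each of the 5 was listed once in every table, and all 5 passed the filter on low values (at least 1 FPKM in at least 2 libraries), which kept 14391 genes. FPKM is a transcript level scaled to gene length and library size. The 8 libraries came from whole kidneys of C57BL/6 mice, 2 in each of 4 groups. PKD_FP and PKD_DMSO were kidneys with autosomal dominant polycystic kidney disease given flavopiridol (FP), a drug that blocks cyclin-dependent kinases including the kinase of P-TEFb, or the vehicle DMSO. WT_FP and WT_DMSO were wild-type kidneys given the same drug or vehicle. No label names the mutated gene, what drives its loss, the dose, the length of treatment, age or sex, or says whether replicates were separate animals. P-values therefore measure only the spread between these libraries, which may be technical.

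Keratins form filaments only as pairs of a type II and a type I chain. Krt7 and Krt8 encode type II chains, and Krt18, Krt19 and Krt20 encode type I chains. The chains of Krt8 and Krt18 are the basic pair of simple epithelia, and they protect cells against mechanical and toxic stress. In the healthy kidney, keratins of this class are known chiefly from the collecting duct and the lining of the urinary tract, with lower levels in other tubule segments, and they are known to increase in injured tubules. Keratin protein and filaments were not measured in these data.

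The type II genes and Krt18 lie on GRCm38 chromosome 15, with 568904 bases between Krt7 and Krt8. Krt7 lies at 101412403 to 101427806 on the plus strand with 9 exons. Krt8 lies at 101996711 to 102004342 on the minus strand with 9 exons, and 23873 bases separate it from Krt18, which lies at 102028216 to 102032026 on the plus strand with 7 exons. The other type I genes lie on chromosome 11 on the minus strand, Krt20 at 99428385 to 99438153 with 8 exons and Krt19 at 100140810 to 100145926 with 6 exons. The values of Krt8 and Krt18 are uncertain to an unknown degree because near copies can share reads. The pseudogene Krt8-ps matched the Krt8 transcript at 98.6% identity over 941 bases, and Gm5200 matched that of Krt18 at 90.5% over 1267 bases. Neither was listed under its own symbol in the tables.

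The promoters of Krt20, Krt7 and Krt8 are shown because these genes covered the range of response, with Krt20 as the gene of the largest difference and Krt7 as that of the smallest. The sequences run 5′ to 3′ on the gene's strand, from 250 bases before to 50 bases after the annotated start, and were taken from RefSeq for GRCm38.p6, where 4 of the 5 genes matched. Capitals mark the letters of 2 motifs searched on both strands, the TATA box (TATAAA) and the GC box (GGGCGG, on the other strand CCGCCC).
Krt20, chr11:99438104-99438403, minus strand: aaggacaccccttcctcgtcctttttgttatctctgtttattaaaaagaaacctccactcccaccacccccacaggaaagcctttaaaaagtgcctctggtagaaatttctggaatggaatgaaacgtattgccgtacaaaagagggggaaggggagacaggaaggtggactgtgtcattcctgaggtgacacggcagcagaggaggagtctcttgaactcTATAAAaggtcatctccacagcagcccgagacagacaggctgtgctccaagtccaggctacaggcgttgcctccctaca
Krt7, chr15:101412153-101412452, plus strand: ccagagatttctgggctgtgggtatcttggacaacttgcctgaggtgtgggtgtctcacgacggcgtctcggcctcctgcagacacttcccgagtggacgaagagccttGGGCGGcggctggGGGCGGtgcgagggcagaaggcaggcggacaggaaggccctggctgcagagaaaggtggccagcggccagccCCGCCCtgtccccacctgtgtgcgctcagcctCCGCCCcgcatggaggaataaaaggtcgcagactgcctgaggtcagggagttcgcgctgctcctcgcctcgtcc
Krt8, chr15:102004293-102004592, minus strand: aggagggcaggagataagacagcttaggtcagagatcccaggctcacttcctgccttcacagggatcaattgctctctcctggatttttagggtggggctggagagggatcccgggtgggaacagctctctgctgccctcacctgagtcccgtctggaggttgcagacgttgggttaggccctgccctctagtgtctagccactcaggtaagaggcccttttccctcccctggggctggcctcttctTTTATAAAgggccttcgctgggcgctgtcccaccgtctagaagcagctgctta

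The Krt20 window had 1 TATA box, at bases −29 to −24 from the start, and a GC content of 50%. The Krt7 window had 4 GC boxes and no TATA box, with a GC content of 66.3%. In the Krt8 window the TATA letters overlapped on both strands, at −3 to 3 and −1 to 5, with no GC box and a GC content of 58%. The Krt18 window (chr15:102027966-102028265, GC content 61.3%) had neither motif. A binding motif of the AP-1 factors (TGANTCA) was in none of the 4 windows. Over all 32851 promoters of the table, 13.6% held the TATA letters, 35.7% the GC box and 7.81% the AP-1 letters, and the median GC content was 52.7%. These matches describe the letters of the windows and were not tested for a part in the differences below.

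FPKM sums ran from 486060 to 572823 over the libraries, with 12790 to 13813 genes at 1 FPKM or more. Both PKD_DMSO sums (508072 and 486060) were below both WT_DMSO sums (572823 and 566173), so scale differed between these groups. The number of reads is unknown, so no counting error can be given. Relative depths read from the steps between low values ranged from 0.983 to 1.30 times that of WT_DMSO replicate 1. They are rough, as each rests on the most frequent ratio, shared by 4 genes (PKD_DMSO replicate 1) to 20 genes (WT_FP replicate 2). The first principal component (57.7% of the variance) separated PKD from WT libraries. On the second (20.1%), replicates were apart in WT_DMSO (21.8 and −27.4), WT_FP (−14.25 and 29.85) and PKD_FP (5.88 and 37.34). Those of PKD_DMSO were close (−28.23 and −24.98). WT_FP replicate 2 stood apart from WT_FP replicate 1 in markers of cells that carry keratins. Its summed level of 11 markers of principal cells, the water-reabsorbing cells of the collecting duct, was 2145 FPKM against 895 FPKM in WT_FP replicate 1. For 8 urothelial markers the sums were 297 and 54.7 FPKM. PKD_FP replicate 2 was likewise higher than PKD_FP replicate 1 in urothelial markers, with 439 and 109 FPKM. Results that rest on WT_FP are therefore given with and without its replicate 2.

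PKD_DMSO was set against WT_DMSO to ask which of these transcripts differed with the disease in the absence of drug. All 5 keratins were higher in PKD_DMSO than in WT_DMSO, and the log2 fold changes of the type I genes exceeded those of the type II genes, a difference between genes that was not tested. Krt7, the type II keratin of ducts and urothelium, had 394 and 317 FPKM in PKD_DMSO, against 186 and 155 FPKM in WT_DMSO. Krt8 had 407 and 325 FPKM in PKD_DMSO, against 91.6 and 99.4 FPKM in WT_DMSO. For both type II genes the lower PKD_DMSO library was above the higher WT_DMSO library. Krt18, whose product pairs with that of Krt8, had 321 and 271 FPKM in PKD_DMSO, against 60.4 and 44.95 FPKM in WT_DMSO. Krt19, a type I keratin of duct epithelia that lacks the tail domain of its relatives, had 322 and 195 FPKM in PKD_DMSO, against 29.2 and 25.0 FPKM in WT_DMSO. The PKD_DMSO replicates of Krt19 were the farthest apart of the 5 genes, yet neither came near the WT_DMSO level. Krt20, a type I keratin known from intestinal epithelium and the superficial cells of the urothelium, had 36.3 and 35.8 FPKM in PKD_DMSO, against 0.72 and 1.08 FPKM in WT_DMSO. Krt20 was near the filter of 1 FPKM in WT_DMSO and well above it in both PKD_DMSO libraries.

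**Figure D1:**
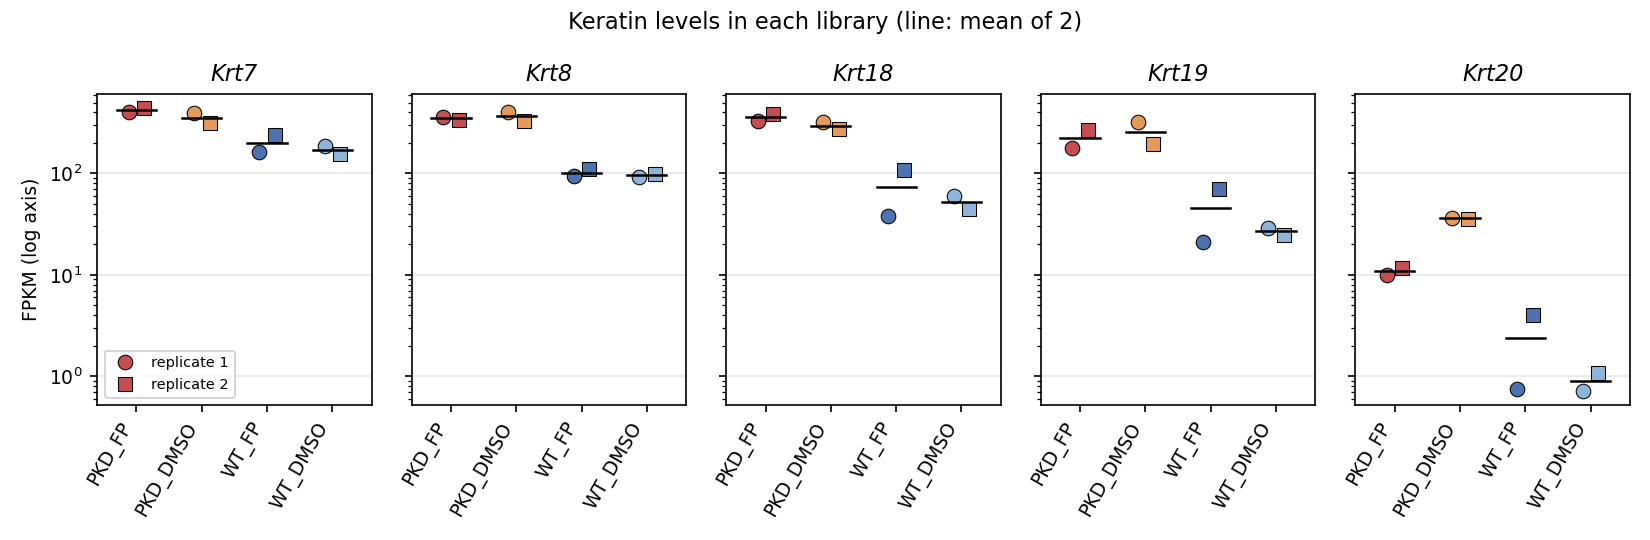
FPKM of each keratin (log axis) in the 8 libraries, by group, with replicate 1 as circles, replicate 2 as squares and the mean of 2 as a line. Both PKD groups lie above both WT groups for every gene, and the PKD_FP libraries lie below the PKD_DMSO libraries for Krt20, at 10.05 and 11.6 FPKM against 36.3 and 35.8 FPKM.

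On the log2(FPKM + 1) scale, with a model across all genes (limma, Benjamini-Hochberg adjustment over 14391 genes), all 5 passed the threshold of 0.05 as higher in PKD_DMSO, where 14.8% of all genes tested were called higher and 7.52% lower. Of the 3212 genes called, 66.3% were higher (2130 and 1082 lower). That split depended on the scaling, with 1524 and 1358 (52.9% higher) after median-of-ratios scaling, 1700 and 1522 (52.8%) after quantile normalization, and 3488 and 849 (80.4%) after rescaling every library to a common sum. The log2 fold change of Krt7 was 1.05 ± 0.24 (SE; limma, adjusted p = 0.024), from means of 356 ± 54.6 FPKM in PKD_DMSO and 171 ± 21.8 FPKM in WT_DMSO (SD, n = 2 each). That of Krt8 was 1.92 ± 0.17 (limma, adjusted p = 0.00201), from 366 ± 57.6 and 95.5 ± 5.54 FPKM in PKD_DMSO and WT_DMSO. Krt18 rose by 2.48 ± 0.45 (limma, adjusted p = 0.0129), with means of 296 ± 35 FPKM in PKD_DMSO and 52.7 ± 10.9 FPKM in WT_DMSO. These values place the pair of Krt8 and Krt18 between Krt7 and the remaining type I genes. Krt19 rose by 3.17 ± 0.54 (limma, adjusted p = 0.011), with 258 ± 89.9 FPKM in PKD_DMSO and 27.1 ± 2.99 FPKM in WT_DMSO. Krt20 rose by 4.29 ± 0.44 (limma, adjusted p = 0.00292), with 36.1 ± 0.339 FPKM in PKD_DMSO and 0.90 ± 0.255 FPKM in WT_DMSO, and ranked 14 of 14391 genes by log2 fold change. The ratios of group means were 2.09 for Krt7, 3.83 for Krt8, 5.62 for Krt18, 9.54 for Krt19 and 40.1 for Krt20. The median log2 fold change of the 5 was 2.48, against 0.12 over all genes tested.

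The libraries of PKD_DMSO and WT_DMSO did not overlap for any of the 5 keratins, which was also true of 65.7% of all genes tested. Krt8 and Krt20 kept their calls whichever library was left out. The call of Krt7 ended without any 1 of the 4 libraries compared, at 1.18 and 0.92 without WT_DMSO replicate 1 or 2 and at 0.90 and 1.21 without PKD_DMSO replicate 1 or 2. Those of Krt18 and Krt19 ended without WT_DMSO replicate 2 (2.27 and 3.06), PKD_DMSO replicate 1 (2.36 and 2.80) or PKD_DMSO replicate 2 (2.60 and 3.53). In each such fit the group left with 1 library was assumed to vary like the others. Because Krt20 was near 1 FPKM in WT_DMSO, its fold depended on the value added before the logarithm, and with 0.1 in place of 1 it was 5.20.

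**Figure D2:**
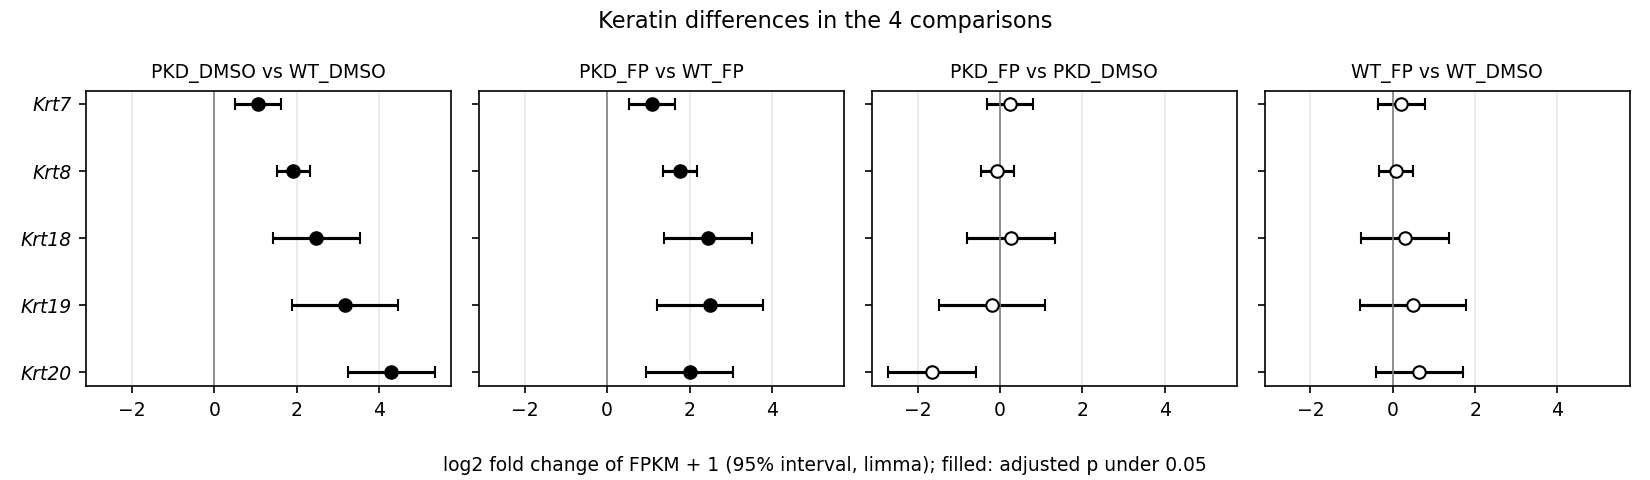
Log2 fold changes of FPKM + 1 (horizontal axis) for the 5 keratins in 4 comparisons, with 95% intervals from limma; filled points had an adjusted p under 0.05. Every point is filled in both comparisons of PKD with WT and none is filled in the comparisons of FP with DMSO, where the Krt20 interval in PKD (−2.71 to −0.59) excludes 0 without passing the adjusted threshold.

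Since FPKM is scaled to length, levels of different keratins can be set side by side, though no source used here gives the gene lengths behind the deposited values. In both WT_DMSO libraries the order was Krt7, Krt8, Krt18, Krt19 and Krt20, with no overlap between neighbours over the 2 libraries. In PKD_DMSO the levels of Krt7, Krt8, Krt18 and Krt19 overlapped (195 to 407 FPKM) and their neighbours in the order did not differ beyond the spread of replicates. Krt20 stayed far below them at about 36 FPKM. In PKD_FP, Krt7 was above the others in both libraries, Krt8 and Krt18 overlapped, and Krt19 came next at 179 and 269 FPKM. In WT_FP the range of Krt18 overlapped those of Krt8 and Krt19, and in replicate 2 Krt8 and Krt18 were at 109 and 108 FPKM.

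The 5 genes together reached 1283 and 1444 FPKM in PKD_FP, 1479.9 and 1144 FPKM in PKD_DMSO, 315 and 532 FPKM in WT_FP, and 368 and 326 FPKM in WT_DMSO. Every PKD library had a higher sum than any WT library. The mean sums were 1364 ± 114 FPKM in PKD_FP, 1312 ± 237.5 FPKM in PKD_DMSO, 424 ± 153 FPKM in WT_FP and 347 ± 29.9 FPKM in WT_DMSO (SD, n = 2 each). As a share of all FPKM in a library the keratins took 0.226% and 0.265% in PKD_FP, 0.291% and 0.235% in PKD_DMSO, 0.0576% and 0.0981% in WT_FP, and 0.0642% and 0.0575% in WT_DMSO.

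The balance of the chain types also differed between the genotypes. The ratio of the type II sum (Krt7 and Krt8) to the type I sum (Krt18, Krt19 and Krt20) was 1.47 and 1.17 in PKD_FP, 1.18 and 1.28 in PKD_DMSO, 4.27 and 1.93 in WT_FP, and 3.07 and 3.59 in WT_DMSO. All 4 PKD libraries were below all 4 WT libraries, and the lowest WT value was that of WT_FP replicate 2. No test was made of these ratios. Krt7 made up 31.1% and 30.8% of the 5-gene sum in PKD_FP, 26.6% and 27.7% in PKD_DMSO, 51.1% and 45.3% in WT_FP, and 50.6% and 47.7% in WT_DMSO. Within the pair, the ratio of Krt8 to Krt18 was 1.10 and 0.872 in PKD_FP, 1.27 and 1.2 in PKD_DMSO, 2.48 and 1.01 in WT_FP, and 1.52 and 2.21 in WT_DMSO. The genotypes were apart in this ratio under vehicle. Under FP they overlapped only through WT_FP replicate 2 (1.01), as WT_FP replicate 1 (2.48) was above both PKD_FP libraries.

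**Figure D3:**
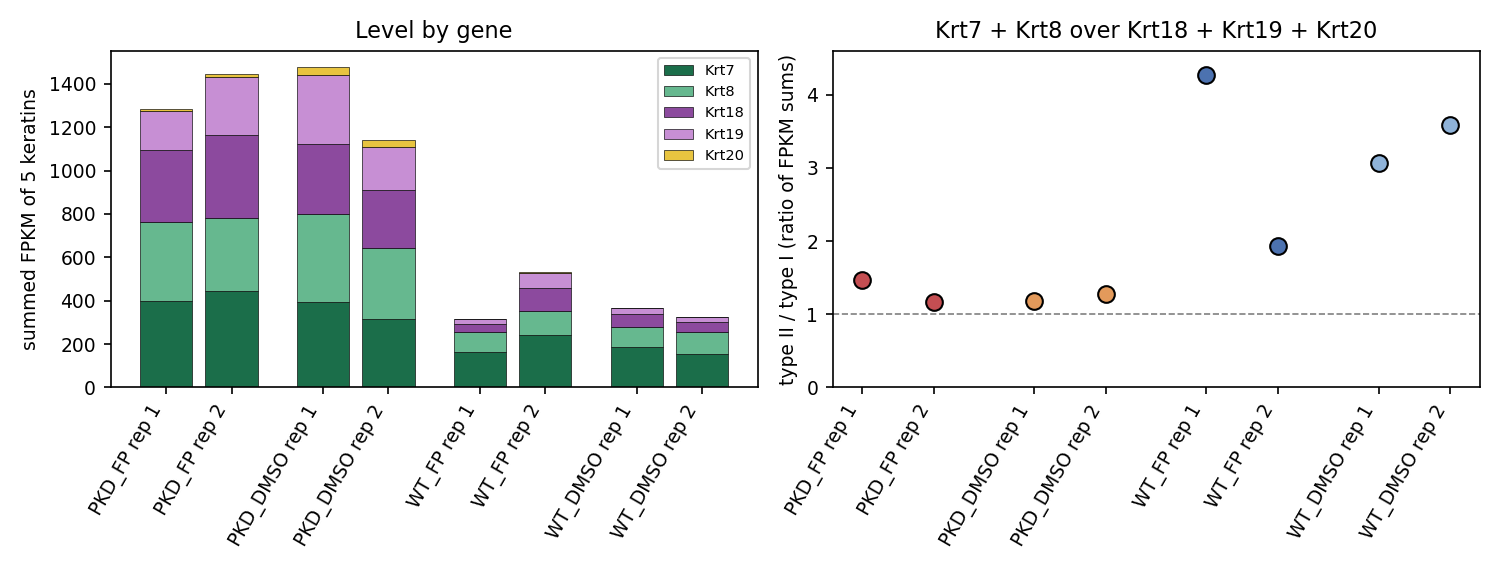
Left, FPKM of the 5 keratins stacked in each library; right, the ratio of the type II sum (Krt7 and Krt8) to the type I sum (Krt18, Krt19 and Krt20), with the dashed line at 1. PKD libraries reach 1144 to 1479.9 FPKM in sum with ratios of 1.17 to 1.47, and WT libraries reach 315 to 532 FPKM with ratios of 1.93 to 4.27.

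Comparing PKD_FP with PKD_DMSO asks what the drug changed in the diseased kidney. Krt20 had the lower level in both drug-treated libraries, and the 4 other keratins stayed near their vehicle level. Krt20 had 10.05 and 11.6 FPKM in PKD_FP, against 36.3 and 35.8 FPKM in PKD_DMSO. The groups did not overlap and replicates of each were close, so the mean in PKD_FP (10.8 ± 1.11 FPKM, SD, n = 2) was 0.30 times that in PKD_DMSO. The log2 fold change was −1.65 ± 0.44 (SE; 95% interval −2.71 to −0.59), with an unadjusted p of 0.00795 in the limma fit and an adjusted p of 0.147 by Benjamini-Hochberg over all genes, which did not pass. In this comparison 0.0139% of all genes were called in either direction, and 9.14% were lower at an unadjusted p under 0.05. Over the alternatives tried, the Krt20 difference stayed between −1.85 and −1.55 and its adjusted p in limma between 0.121 and 0.527.

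Krt7 had 399 and 445 FPKM in PKD_FP, against 394 and 317 FPKM in PKD_DMSO, a log2 fold change of 0.25 (95% interval −0.31 to 0.81). Krt18 had 331 and 384 FPKM in PKD_FP, against 321 and 271 FPKM in PKD_DMSO, a log2 fold change of 0.27 (−0.79 to 1.33). Both were slightly higher in each PKD_FP library than in either PKD_DMSO library. Krt8 had 364 and 335 FPKM in PKD_FP, against 407 and 325 FPKM in PKD_DMSO, and stood at −0.06 (−0.47 to 0.35). Krt19 had 179 and 269 FPKM in PKD_FP, against 322 and 195 FPKM in PKD_DMSO, and stood at −0.19 (−1.47 to 1.10). These groups overlapped. Without overlap were 3 of the 5 keratins (Krt7, Krt18 and Krt20), against 56.6% of all genes tested. None of the 5 passed the adjusted threshold, and Krt20 was the only 1 of them with an unadjusted p under 0.05 in the limma fit. The intervals of Krt7 and Krt8 excluded a 2-fold difference in either direction, while those of Krt18 and Krt19 did not.

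Relative to the other keratins, Krt20 was lower in PKD_FP. It amounted to 5.61 and 4.32 FPKM per 100 FPKM of Krt19 in PKD_FP, against 11.3 and 18.4 in PKD_DMSO. Its share of the 5-gene sum was 0.783% and 0.804% in PKD_FP, against 2.45% and 3.13% in PKD_DMSO. In both measures the PKD_FP libraries were below the PKD_DMSO libraries, although no test was made of them. Both reuse the Krt20 levels given above and are not a separate observation.

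In wild-type kidneys the drug comparison was carried by 1 library. All 5 keratins were higher in WT_FP replicate 2 than in WT_FP replicate 1, and for each gene the WT_FP replicates lay on both sides of at least 1 WT_DMSO library. Krt18 had 38.1 and 108 FPKM in WT_FP, against 60.4 and 44.95 FPKM in WT_DMSO. Krt19 had 20.9 and 69.5 FPKM in WT_FP, against 29.2 and 25.0 FPKM in WT_DMSO. Krt20 had 0.74 and 4.0 FPKM in WT_FP, against 0.72 and 1.08 FPKM in WT_DMSO. For each of these genes replicate 2 was above both vehicle libraries and replicate 1 was not. Krt7 had 161 and 241 FPKM in WT_FP, against 186 and 155 FPKM in WT_DMSO. Krt8 was steady, with 94.4 and 109 FPKM in WT_FP, against 91.6 and 99.4 FPKM in WT_DMSO. The log2 fold changes were 0.21 for Krt7, 0.09 for Krt8, 0.30 for Krt18, 0.49 for Krt19 and 0.64 for Krt20, and none passed (limma, adjusted p = 1 for each). The Krt8 interval was −0.32 to 0.50 and that of Krt7 was −0.35 to 0.77, while those of Krt18 (−0.76 to 1.36), Krt19 (−0.79 to 1.77) and Krt20 (−0.42 to 1.70) included a 2-fold increase. No keratin was free of overlap between WT_FP and WT_DMSO, against 21.9% of all genes without overlap, and 0% of all genes were called. At an unadjusted p under 0.05 the limma fit had 131 genes higher and 52 lower, and no keratin among them. Without WT_FP replicate 2 the 5 log2 fold changes were −0.08, −0.02, −0.44, −0.35 and −0.12, in the order of the genes above, so the direction of each rested on that library.

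Comparing PKD_FP with WT_FP asks whether the genotypes differed under the drug. All 5 keratins were higher in PKD_FP (limma with Benjamini-Hochberg), where 8.71% of all genes were called higher and 5.23% lower. The log2 fold change was 1.09 ± 0.24 for Krt7 (adjusted p = 0.0304), 1.77 ± 0.17 for Krt8 (0.00476), 2.45 ± 0.45 for Krt18 (0.0199), 2.49 ± 0.54 for Krt19 (0.0312) and 2.0 ± 0.44 for Krt20 (0.0329), all from the limma fit. Krt20 averaged 10.8 ± 1.11 FPKM in PKD_FP and 2.37 ± 2.31 FPKM in WT_FP (SD, n = 2 each), a ratio of 4.57. The mean ratios of the other genes were 2.10 for Krt7, 3.43 for Krt8, 4.88 for Krt18 and 4.96 for Krt19. The groups did not overlap for any of the 5, as for 59.8% of all genes tested. Both comparisons of PKD with WT draw on different libraries, and the order of the log2 fold changes was the same in them for Krt7, Krt8 and Krt18.

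How firmly these values hold depended on the libraries and settings of the fit, and not on WT_FP alone. Without WT_FP replicate 2 all 5 passed, and the log2 fold changes were 1.38 for Krt7, 1.88 for Krt8, 3.19 for Krt18, 3.33 for Krt19 and 2.76 for Krt20. Without WT_FP replicate 1 they were 0.80, 1.67, 1.71, 1.65 and 1.24 in the same order, and only Krt8 and Krt18 passed. Without PKD_FP replicate 1 or replicate 2 only Krt8 passed, at 1.71 and 1.83, and without either PKD_DMSO library Krt8 and Krt18 passed. With replicate number as a block, 3 of the 5 passed (Krt8, Krt18 and Krt20). In the fit of these 4 libraries alone only Krt8 did, and without the filter on low values Krt19 and Krt20 did not.

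The interaction term asks whether the difference between FP and DMSO itself differed between the genotypes. Krt20 stood at −2.29 ± 0.63 (SE; 95% interval −3.79 to −0.80), with an unadjusted p of 0.00868 in the limma fit and an adjusted p of 0.384, so the difference did not pass. Of all genes, 0% were called in this contrast and 6.78% were lower at an unadjusted p under 0.05, where the counts were 640 higher and 976 lower. Without WT_FP replicate 2 the value for Krt20 was −1.53 and without WT_FP replicate 1 it was −3.05. The lowest adjusted p for Krt20 among the alternatives (limma) was 0.171 and the highest 0.877. The other keratins stood at 0.04 (Krt7), −0.15 (Krt8), −0.03 (Krt18) and −0.68 (Krt19), and each interval included 0.

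Across the 8 libraries the 5 keratins moved closely together. Pearson's r of log2(FPKM + 1) was highest between Krt7 and Krt18 (0.99) and lowest between Krt7 and Krt20 (0.858). Among 13249 other genes, those most like Krt18 were Lasp1 (r = 0.998), Gnb1 (0.995) and Rdh12 (0.995). Lasp1, which encodes an actin-binding protein, was also among the 3 most like Krt19, with the epithelial transcription factor gene Elf3 (0.995) and the troponin gene Tnni2 (0.994). Krt7 was most like Ier5, Myl12b and Hoxb7 (0.991 to 0.992), and Krt8 most like Chmp2b, Sec14l2 and Rps6ka1 (0.995 to 0.997). Krt20 was most like N4bp1 (0.993) and Snx10 (0.992). These are descriptions over 8 libraries that share the split by genotype, in which any gene that differs strongly between PKD and WT correlates highly.

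Other keratins stayed below Krt7, Krt8, Krt18 and Krt19 in every library, but not always below Krt20. In PKD_DMSO replicate 1, Krt5 (57.8 FPKM), Krt15 (50.1 FPKM) and Krt14 (41.8 FPKM) were above Krt20 (36.3 FPKM). In PKD_DMSO replicate 2 the highest, Krt15 (25.5 FPKM), was below Krt20 (35.8 FPKM). Of 23 listed as keratins of stratified and other epithelia, 8 passed the filter, of which 4 were higher and 1 lower in PKD_DMSO than in WT_DMSO, with a median log2 fold change of 2.41. Krt4 and Krt17 reached 1 FPKM only in PKD libraries and so passed the filter through the genotype in which they were high. Among the 6 others, 2 were higher and 1 lower, with a median of 1.90. Over all genes tested, 14.8% were called higher and 7.52% lower. Krt14, the type I keratin of basal cells, had 41.8 and 22.6 FPKM in PKD_DMSO, against 1.72 and 0.96 FPKM in WT_DMSO, and rose by 3.78 (limma, adjusted p = 0.00671). Krt17, a keratin of stressed epithelia, had 14.3 and 11.6 FPKM in PKD_DMSO, against 0.19 and 0.04 FPKM in WT_DMSO, and stood at 3.64 (limma, adjusted p = 0.00151), a call that the filter favoured. Even the highest of these stayed below the level of Krt19 in the same libraries. Krt4 stood at 2.19, Krt80 rose by 1.17, and Krt10, a keratin of differentiated epidermis, fell by 0.93. Krt5, the basal partner of Krt14, had 57.8 and 20.6 FPKM in PKD_DMSO, against 5.10 and 4.45 FPKM in WT_DMSO, and did not pass (2.63; limma, adjusted p = 0.0631). Under FP, Krt4, Krt14 and Krt17 were higher in PKD_FP than in WT_FP, and none of the 8 passed between PKD_FP and PKD_DMSO. Beyond the keratins, 6 of 14 other intermediate filament genes were tested, and the lamin genes Lmna (0.98) and Lmnb1 (0.92) were higher in PKD_DMSO.

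Genes that hold keratin filaments in place were compared as a group. Of 20 genes of desmosomes, hemidesmosomes and linker proteins, 18 were tested, and 9 were higher and 0 lower in PKD_DMSO, with a median log2 fold change of 0.71. Of the 9, Col17a1 (1.26), which encodes a hemidesmosomal collagen, reached 1 FPKM only in the PKD_DMSO libraries and passed the filter through them, which left 8 of 17. Itgb4, which encodes the hemidesmosomal integrin chain, rose by 2.65 (limma, adjusted p = 0.00162). Plec, which encodes the linker plectin, rose by 1.42 and the desmosomal plakophilin gene Pkp3 by 1.06. Under FP, 3 were higher and 1 lower in PKD_FP than in WT_FP, where 8.71% of all genes were called higher and 5.23% lower. Of 12 genes whose products bind, modify or cleave keratins, 2 were higher in PKD_DMSO, namely Sfn (2.72) and Ywhaq (0.70), both of the 14-3-3 family, and the median was 0.21. That share was close to the 14.8% of all genes called higher. No caspase gene among them passed.

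Transcription factors and surface proteins of simple epithelia gave a mixed picture. Of 17 epithelial transcription factor genes tested, 5 were higher and 0 lower in PKD_DMSO, with Sox9 at 2.16, Elf3 at 1.67, Klf4 at 1.28 and Esrp1, a splicing regulator on the same list, at 1.16. Sox9 and 2 uncalled members passed the filter only through PKD libraries, and of the other 14 genes 4 were higher. Over all genes tested, 14.8% were called higher and 7.52% lower in this comparison. Of 19 genes for surface proteins of simple epithelia, 8 were higher and 1 lower, with a median of 0.73. The tight junction genes Cldn4 (3.41) and Cldn3 (2.19) and the surface gene Prom1 (1.76) were higher, and Cdh16, the kidney-specific cadherin gene, fell by 0.73. Under FP, 2 of the transcription factor genes and 5 of the surface genes were higher in PKD_FP than in WT_FP, where 8.71% of all genes were called higher, a share near that of the transcription factor genes. None of the anchoring, transcription factor or surface genes passed between PKD_FP and PKD_DMSO. The corresponding medians were −0.22 for anchoring genes, 0.02 for transcription factors and −0.02 for surface genes, against 0.04 for all genes.

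**Figure D4:**
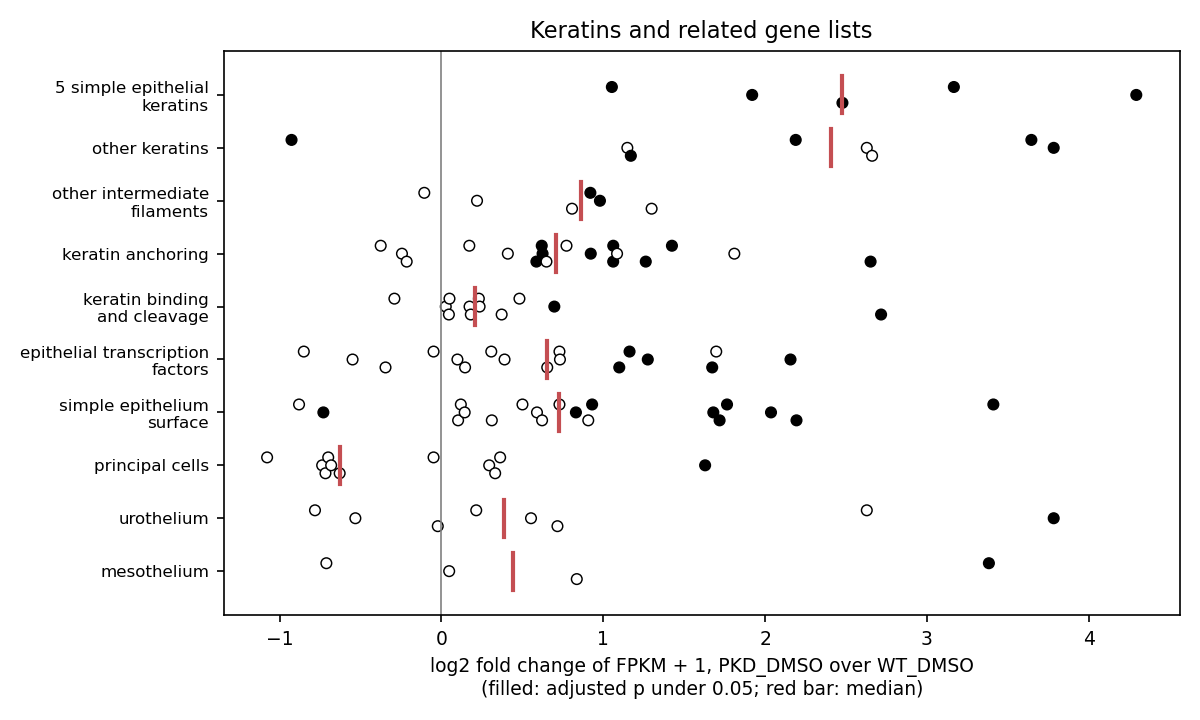
Log2 fold changes of FPKM + 1 in PKD_DMSO over WT_DMSO for the 5 keratins and for tested genes of 9 related lists, 1 point a gene; filled points had an adjusted p under 0.05 in limma and red bars are medians. The keratins range from 1.05 to 4.29 with a median of 2.48, and medians of the other lists run from −0.63 for principal cells to 2.41 for other keratins. Without Krt4 and Krt17, which passed the filter only through PKD libraries, the median of other keratins is 1.90.

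Markers of cell types that carry keratins were read beside these results, since in whole kidney RNA the number of cells of a type and the RNA per cell cannot be told apart. Of 11 principal cell markers, 1 was higher (St6gal1, 1.63) and 0 lower in PKD_DMSO than in WT_DMSO, with a median of −0.63. These counts were not above the shares over all genes tested, of which 14.8% were called higher and 7.52% lower. The principal cell sums were 1149 and 1485 FPKM in PKD_FP, 849 and 765 FPKM in PKD_DMSO, 895 and 2145 FPKM in WT_FP, and 1409.5 and 1006 FPKM in WT_DMSO. The sum, in which Aqp2 has the highest values, was lower in both PKD_DMSO libraries than in both WT_DMSO libraries. Single markers went both ways, as Scnn1a had 74.4 and 74.5 FPKM in PKD_DMSO, against 52.5 and 66.2 FPKM in WT_DMSO. Of 8 urothelial markers, only Krt14 was called, and the sums were 109 and 439 FPKM in PKD_FP, 187 and 144 FPKM in PKD_DMSO, 54.7 and 297 FPKM in WT_FP, and 125 and 73.7 FPKM in WT_DMSO. The 1 urothelial call of 8 was below the 14.8% of all genes called higher, and the median log2 fold change was 0.38. Members went both ways. Upk2 (−0.78), Upk1a (−0.53) and Upk3a (−0.02) were below 0. Psca (0.22), Upk1b (0.55), Trp63 (0.72), Krt5 (2.63) and Krt14 (3.78) were above 0. Trp63 passed the filter only through PKD libraries. The uroplakin gene Upk2 had 5.92 and 5.28 FPKM in PKD_DMSO, against 13.5 and 7.83 FPKM in WT_DMSO. It had 3.08 and 38.7 FPKM in PKD_FP, against 5.61 and 32.6 FPKM in WT_FP, so in each drug group it was high in replicate 2. Krt20 in PKD_FP was alike in both replicates, at 10.05 and 11.6 FPKM. In WT_FP it was higher in replicate 2, at 0.74 and 4.0 FPKM. Whether Krt20 followed the urothelial markers was not tested.

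Of 7 mesothelial markers 4 were tested, and Msln (3.38) was called higher in PKD_DMSO, where 14.8% of all genes were called higher and 7.52% lower. Upk3b (0.84), Wt1 (0.05) and Gpm6a (−0.71) were not called, and Lrrn4 was at or near 0 in all libraries. The mesothelial sums were 46.6 and 51.8 FPKM in PKD_FP, 61.4 and 72.1 FPKM in PKD_DMSO, 45.1 and 49.6 FPKM in WT_FP, and 34.8 and 48.25 FPKM in WT_DMSO. Both PKD_DMSO sums were above both WT_DMSO sums. Injured tubule markers were mostly higher in PKD_DMSO, a shift not particular to them. Macrophage markers (7 of 7 higher, Adgre1 passing the filter only through PKD libraries) and fibroblast markers (6 of 7) went the same way. Of 8 injured tubule markers, 7 were higher and 0 lower in PKD_DMSO, led by Lcn2 (6.72) and Havcr1 (6.63). Havcr1, Sox9 and Cd44 passed the filter only through PKD libraries, and of the other 5 markers 4 were higher. The sums were 12324 and 13871 FPKM in PKD_FP, 13794 and 13749 FPKM in PKD_DMSO, 2153 and 2174 FPKM in WT_FP, and 1953 and 1958 FPKM in WT_DMSO. Most of each sum was Spp1, at 10073 to 11039 FPKM in PKD libraries and 1115 to 1681 FPKM in WT libraries. Cryab overlapped between the genotypes. Most proximal tubule markers moved the other way, with 5 of 10 lower (7.52% of all genes were called lower). Aqp1 was the exception, with 357 and 382 FPKM in PKD_DMSO, against 183 and 275 FPKM in WT_DMSO, and was not called. The proximal tubule sums were 1129 and 814 FPKM in PKD_FP, 1317 and 911 FPKM in PKD_DMSO, 5876 and 3016 FPKM in WT_FP, and 5134 and 6230.0 FPKM in WT_DMSO. In WT_FP replicate 2, in which every keratin was higher than in replicate 1, the sum of proximal tubule markers was lower and those of principal cell and urothelial markers were higher. The sum of injured tubule markers was near that of replicate 1, but its members went both ways, with Cryab at 185 and 933 FPKM and Spp1 at 1681 and 1115 FPKM in WT_FP replicates 1 and 2. The part of these cell types in the keratin differences was not tested.

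**Figure D5:**
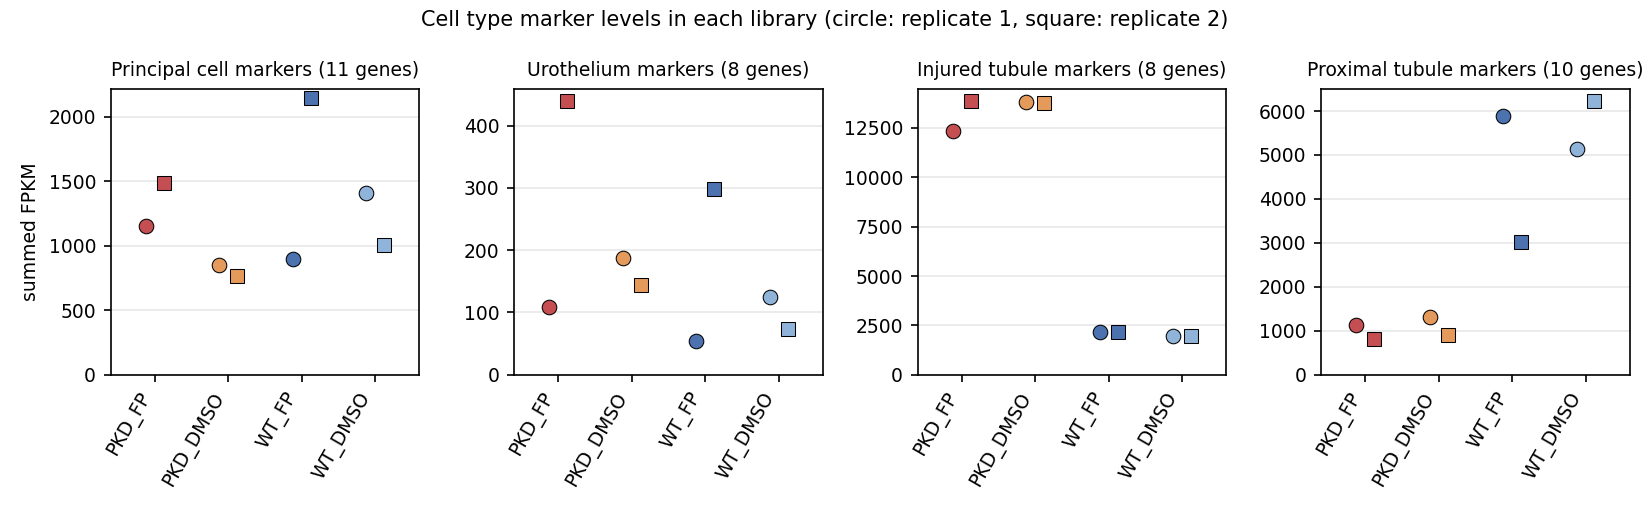
Summed FPKM of principal cell, urothelial, injured tubule and proximal tubule markers in the 8 libraries, with replicate 1 as circles and replicate 2 as squares. The injured tubule sum, most of which is Spp1, separates PKD (12324 to 13871 FPKM) from WT (1953 to 2174 FPKM). WT_FP replicate 2 is highest in principal cell markers at 2145 FPKM.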

How the data were processed

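Poly(A) RNA of 8 mouse kidney samples was sequenced from oligo(dT)-selected libraries made by BGI after TRIzol extraction, per the labels' protocols. The values the authors deposited were FPKM with 2 decimals. The files name no unit, and FPKM was read from the values: over 19476 genes, library totals varied by 1.29% (CV) once each value was multiplied by an effective transcript length, against 5.66% for the plain sum. The submitters' processing notes name Bowtie2, DESeq2 and mm10 and give neither versions nor roles. No source used here gives the counting tool, annotation, gene lengths or read numbers. From the deposited FPKM, log2(FPKM + 1) was fitted with limma 3.58.1 in R 4.3.3 (1 mean per group, 8 libraries, trend and robust settings, two-sided, Benjamini-Hochberg over 14391 genes, threshold 0.05). Dropped were 4 entries whose symbol is repeated and 1 entry without a symbol. Near copies were sought with BLAST+ 2.17.0 among GENCODE M21 transcripts (at least 90% identity over 300 bases).

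The keratins, lists and tests were chosen with earlier results of these data known. Named were the 5 keratins, up to 4 called members a list with the largest log2 fold change in PKD_DMSO against WT_DMSO, and for each keratin the 3 genes of highest correlation. Some genes that this rule named are not reported here. Outside that rule, Krt10, Krt5, Cdh16, Upk2, Lrrn4, Aqp2, Scnn1a, Cd44 and Cryab were named after their values were seen. So were Aqp1, the other urothelial markers apart from Krt14, and the other named mesothelial markers apart from Msln. Lists of thick ascending limb (0 higher and 4 lower of 6 in PKD_DMSO against WT_DMSO), fibroblast (6 and 0 of 7), macrophage (7 and 0 of 7, with Adgre1 passing the filter only through PKD libraries) and proliferation markers (1 and 0 of 6) were also read. In PKD_DMSO against WT_DMSO, 14.8% of all genes tested were called higher and 7.52% lower. The fit was tested on simulated data with known changes. Their noise was normal, independent between genes and drawn with the fit's own variances. That test therefore cannot show how shifts shared by many genes between replicates affect the calls. Alternatives were other filters, pseudocount, scalings, a replicate block, fewer groups and each library left out. Rescaling every library to a common sum was added after the values had been seen. With 2 libraries per group the precision rests on the spread pooled over groups.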

Additional observations from a re-analysis of the deposited data

How the results depend on the processing

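The call of all 5 keratins in PKD_DMSO against WT_DMSO held under every alternative that kept all 8 libraries or the 4 compared, and 2 to 5 were called with each library left out. In PKD_FP against WT_FP 5 were called, 3 without the low-value filter, 1 in the fit of only the groups compared, and 1 to 5 with each library left out. No keratin passed between FP and DMSO under any alternative. With replicate number as a block 3 were called in PKD_FP against WT_FP, genes called in that comparison were 1087 in place of 2007, and in PKD_FP against PKD_DMSO 1 in place of 2; it changed no other call of a keratin. The numbers do not mark anything shared in the labels, and deviations of same-numbered libraries correlated from −0.515 to 0.485, so they were not read as pairs. Over all genes, only the groups compared gave 1968 (in place of 3212) in PKD_DMSO against WT_DMSO, 875 in PKD_FP against WT_FP and 0 in PKD_FP against PKD_DMSO. No filter gave 5 in PKD_FP against PKD_DMSO, 3 in WT_FP against WT_DMSO and 7 in the interaction, where 0 were called with it; the stricter filter and a pseudocount of 0.1 each gave 1 in PKD_FP against PKD_DMSO. With each library left out, genes called ranged from 489 to 2836 in PKD_DMSO against WT_DMSO, from 187 to 1854 in PKD_FP against WT_FP and were 0 throughout in PKD_FP against PKD_DMSO. The cause of these shifts was not tested, beyond the smaller number of libraries or genes in the fit.

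Some differences that missed the threshold changed sign. In WT_FP against WT_DMSO Krt8 was −0.023 after median-of-ratios scaling. In the interaction Krt18 was 0.027 after that scaling, and Krt7 was −0.20 after quantile normalization and −0.19 after rescaling to a common sum. With each library left out, PKD_FP against PKD_DMSO ranged from −0.22 to 0.10 for Krt8 and from −0.55 to 0.17 for Krt19. WT_FP against WT_DMSO ranged from −0.076 to 0.50 for Krt7, −0.015 to 0.19 for Krt8, −0.44 to 1.04 for Krt18, −0.35 to 1.33 for Krt19 and −0.12 to 1.40 for Krt20. The interaction ranged from −0.25 to 0.33 for Krt7, −0.31 to 0.012 for Krt8, −0.77 to 0.71 for Krt18 and −1.52 to 0.16 for Krt19. Keratin sums and chain ratios moved by less than 1 SD under either scaling. Read depth is unknown, so what it limits for Krt20 near 1 FPKM cannot be given.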

Other observations

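Krt15 and Krt23, type I keratins outside the simple epithelial set, were read for their levels only. Krt15 had 11.4 and 77.0 FPKM in PKD_FP, 50.1 and 25.5 FPKM in PKD_DMSO, 6.68 and 21.2 FPKM in WT_FP, and 7.88 and 2.81 FPKM in WT_DMSO. In PKD_FP and WT_FP it was higher in replicate 2, the library of each pair with more urothelial marker RNA. Krt23 had 9.52 and 15.8 FPKM in PKD_FP, 9.87 and 8.42 FPKM in PKD_DMSO, 2.77 and 7.99 FPKM in WT_FP, and 4.85 and 2.56 FPKM in WT_DMSO. Neither passed the threshold in any comparison (limma with Benjamini-Hochberg). Both genes were chosen after their values were seen.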
